A study of Mus musculus with 16 samples.

Results

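The core and linker histone genes were taken as every gene of the GENCODE annotation of GRCm38 (mm10) whose symbol starts with Hist1h, Hist2h, Hist3h or Hist4h, which gave 70 of 55450 genes. Their accessibility was read from the ATAC-seq peak lists of activated splenic B cells, with a promoter window that began 1000 bp before each transcription start and ended 100 bp after it. Overlapping peaks of the 8 lists were joined into 16566 regions, of which 10326 touched a promoter window and 43 touched that of a histone gene. A region shared by several histone genes was counted once and carries all their names.

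The study asked what Brg1, the ATPase encoded by Smarca4 that drives nucleosome remodelling by SWI/SNF complexes, does in B cells that have been activated. Spleens came from C57BL/6 mice carrying CD23Cre, a transgene that removes floxed sequence in mature B cells, and the mice were either Brg1fl/+ or Brg1fl/fl, with 4 libraries each. The Brg1fl/+ libraries are therefore controls that carry Cre and can lose 1 Smarca4 allele, not wild type cells. The stimulus was LPS (10 µg/mL) plus IL-4, the latter at 20 ng/mL, given for a time that the sources state differently (72 hours by the sample labels, 96 hours by the series description), and each library was made from 50000 cells. ATAC-seq marks DNA that a transposase can reach. The height of a peak summit is given here in fragments. The number of mice was not given in the sources used here, and the names of the deposited lists tie library 1 to 2 and library 3 to 4 in either genotype, so that these may share a mouse and p-values measure only the spread between libraries.

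Replication-dependent histone genes are short, mostly without introns, and lie in clusters. They are transcribed in S phase, when a dividing cell must package its new DNA, and most of their mRNAs end in a conserved stem-loop in place of a poly(A) tail. Many H2A and H2B genes stand back to back and share the stretch between their starts, which holds CCAAT boxes, TATA boxes and often an octamer, while H4 and H1 genes use elements of their own.

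The lists held 6271 to 14614 peaks, and the background recovered from them ran from 2.76 to 6.89 fragments per kb. Brg1fl/+ library 1 had the longest list and Brg1fl/+ library 3, with the lowest background, had 6372 peaks, so a peak missing from a list was not detectable at that depth and the chromatin is not shown to be closed. Of 9 B cell marker genes 6 had a promoter peak in at least 1 list, among them Ms4a1, Cd74 and Pax5 in all 8, while Cd79b, Cd22 and Blk had none, and none of 8 T and NK cell, 7 myeloid and 3 erythroid marker genes had a peak in any list. The promoter of Smarca4 had a peak in all 8 lists, with scaled heights of 63.2 to 73.8 fragments in Brg1fl/+ and 69.97 to 93.98 in Brg1fl/fl, which does not check the deletion, since the position of the floxed stretch is not given in the sources used here.

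The 70 genes comprised 6 H1, 20 H2A, 19 H2B, 12 H3 and 13 H4 genes, 3 of them annotated as pseudogenes (Hist1h2al, Hist1h2aj and Hist3h2bb-ps). On chromosome 13 they form 3 blocks of 19, 5 and 31 genes, at chr13:21715763-21837530, chr13:22035164-22043676 and chr13:23531050-23934851, with Hist1h2al apart from them. The Hist2 cluster holds 10 genes at chr3:96219865-96270132, the Hist3 cluster 3 genes at chr11:58948920-58956830, and Hist4h4 lies alone on chromosome 6. The stem-loop element was found in the gene or within 200 bp past its end in 62 of the 70, and is shown because the rule did not use it and it divides the classes. The form spelled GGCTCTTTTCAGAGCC in 42 genes, or with another base in its loop in 10, belonged to H1, H2A, H2B and H3 genes, and the form spelled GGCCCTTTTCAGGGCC in 8 genes, or likewise in 2, to H4 genes. The element was found in 29 of 33 genes with a peak in all 8 lists and in 10 of 11 with a peak in none.

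The sequences between or before the starts are shown for regions that the results below turn on, and for a pair that was never detected. Capitals mark CCAAT boxes, TATAAA boxes and ATTTGCAT octamers on either strand, so ATTGG is CCAAT and TTTATA is TATAAA read on the other strand. The stretches between the paired starts were read from the plus strand of the GRCm38 genome, at chr13:23683949-23684198 for Hist1h2ac/Hist1h2bc and chr13:21716144-21716421 for Hist1h2ai/Hist1h2bl. The others are the 250 bases before the RefSeq start on the gene's own strand, from the RefSeq promoter table of GRCm38.p6, at chr13:23761250-23761499 (minus strand) for Hist1h4a, chr3:96246435-96246684 (plus strand) for Hist2h3c1 and chr13:23934157-23934406 (minus strand) for Hist1h2ba.
Hist1h2ac/Hist1h2bc: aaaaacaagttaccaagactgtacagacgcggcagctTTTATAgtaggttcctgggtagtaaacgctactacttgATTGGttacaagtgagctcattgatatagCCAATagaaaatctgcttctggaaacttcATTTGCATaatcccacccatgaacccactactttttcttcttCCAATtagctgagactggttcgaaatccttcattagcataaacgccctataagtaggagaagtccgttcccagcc
Hist1h2ai/Hist1h2bl: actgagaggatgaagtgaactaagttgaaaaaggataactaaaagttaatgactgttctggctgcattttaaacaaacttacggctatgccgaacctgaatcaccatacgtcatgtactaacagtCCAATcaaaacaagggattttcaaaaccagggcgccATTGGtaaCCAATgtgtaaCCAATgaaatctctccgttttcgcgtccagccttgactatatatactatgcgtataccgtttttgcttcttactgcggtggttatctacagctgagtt
Hist1h4a: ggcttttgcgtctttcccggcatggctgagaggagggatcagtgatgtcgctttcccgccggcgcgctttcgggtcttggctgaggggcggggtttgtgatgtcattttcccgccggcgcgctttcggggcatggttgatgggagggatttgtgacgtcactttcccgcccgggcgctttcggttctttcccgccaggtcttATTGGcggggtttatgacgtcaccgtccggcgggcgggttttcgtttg
Hist2h3c1: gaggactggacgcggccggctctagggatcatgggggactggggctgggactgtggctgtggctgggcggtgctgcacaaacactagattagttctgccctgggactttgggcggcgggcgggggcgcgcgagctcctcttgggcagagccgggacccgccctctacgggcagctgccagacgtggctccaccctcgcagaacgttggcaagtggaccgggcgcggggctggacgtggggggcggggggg
Hist1h2ba: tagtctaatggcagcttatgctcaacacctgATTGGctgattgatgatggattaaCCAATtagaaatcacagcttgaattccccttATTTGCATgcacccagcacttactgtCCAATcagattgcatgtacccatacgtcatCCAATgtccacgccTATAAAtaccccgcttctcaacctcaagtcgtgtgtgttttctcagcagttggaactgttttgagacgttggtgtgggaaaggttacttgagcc
The Hist1h2ac/Hist1h2bc stretch held 3 CCAAT, 1 TATAAA and 1 ATTTGCAT, the octamer bound by Pou2f1 and Pou2f2, and the Hist1h2ai/Hist1h2bl stretch held 4 CCAAT and neither of the others. Before Hist1h4a there was 1 CCAAT, and before Hist2h3c1 none of the 3 motifs. Its near copy Hist2h3c2 shared an unbroken run of 231 of the 250 bases with it. The 250 bases before Hist1h2ba, a testis-type H2B gene, held 4 CCAAT, 1 TATAAA and 1 ATTTGCAT, although no list had a peak there.

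The 300-base promoters of RefSeq run from 250 bases before to 50 after the start and were present for 62 of the 70 genes. Shares are per gene, and a gene counted as holding a motif if any of its promoters did. CCAAT stood in 85.5% of the histone genes with a promoter and in 41.1% of all 27025 genes of the promoter table. It was in every H1, H2A, H2B and H3 promoter of the table and in 3 of 12 H4 promoters. TATAAA stood in 56.5% against 15.7% of all, and ATTTGCAT in 22.6% against 1.97%, with 7 of 18 H2A and 7 of 16 H2B promoters and none of the other classes. The H1 box AAACACA was in 5 of 6 H1 promoters and in 8.22% of all genes of the promoter table. An E2F-type site, TTTCGCGC or TTTGGCGC, was in 14.5% of histone promoters, all of them H2A or H2B, and in 0.929% of all. Motifs were searched on both strands, the 2 E2F spellings count as 1 motif, no motif contains another, and paired genes share part of their windows, so that these shares do not count independent promoters.

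Most histone genes had a peak in their promoter window in these B cells. Of the 70 genes 59 had a promoter peak in at least 1 list, 33 in all 8 and 11 in none. Among the 67 protein-coding members 85.1% had a peak in at least 1 list and 46.3% in all 8, against 47.8% and 22.3% of all 21923 protein-coding genes. In these packed clusters a window can reach the peak of a neighbour. Hist1h3h counts as detected in all 8 lists only through the end of the Hist1h2ai/Hist1h2bl region. With regions assigned by their centre, 47 of the 70 genes had a promoter peak, and this was not run for all protein-coding genes. The counts by class and position share this limit. The classes differed. All 13 H4 genes were detected at least once and 4 in all lists, and 17 of 20 H2A genes and 17 of 19 H2B genes were detected, with 11 and 13 in all lists. Of the H3 genes 10 of 12 were detected and 5 in all lists. Of the 6 linker histone H1 genes, which bind DNA between nucleosomes, Hist1h1c was detected in 5 lists and Hist1h1e in 6, and the other 4 in none.

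The 11 genes never detected were Hist1h1a, Hist1h1b, Hist1h1d, Hist1h1t, Hist1h2aa, Hist1h2af, Hist1h2al, Hist1h2ba, Hist1h3a, Hist1h3d and Hist3h2ba. Hist1h1t, Hist1h2aa and Hist1h2ba are known as testis-type histone genes, and Hist1h2al is a pseudogene outside the clusters. By position, 12 of 19 genes of the first block, 4 of 5 of the second, 7 of 31 of the third and 8 of 10 Hist2 genes had a peak in all 8 lists. The CpG ratio (observed over expected) of the 300-base promoters was taken per gene, as the median where a gene had several. It had a median of 0.85 for genes with a peak in all 8 lists, 0.69 for those with 1 to 7 and 0.65 for those with none. Over all genes of the promoter table it was 0.39.

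The 43 regions were 259 to 1546 bp wide (median 659). They were distributed as 17 in all 8 lists, 10 in 7 lists, 11 in 2 to 6 lists and 5 in a single list. The share in all 8 lists, 39.5%, was near the 41.1% of all 10326 promoter regions. Of the 10 regions in 7 lists 7 were missing from Brg1fl/+ library 3 alone, where 18 of the 43 histone regions had no peak.

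**Figure D1:**
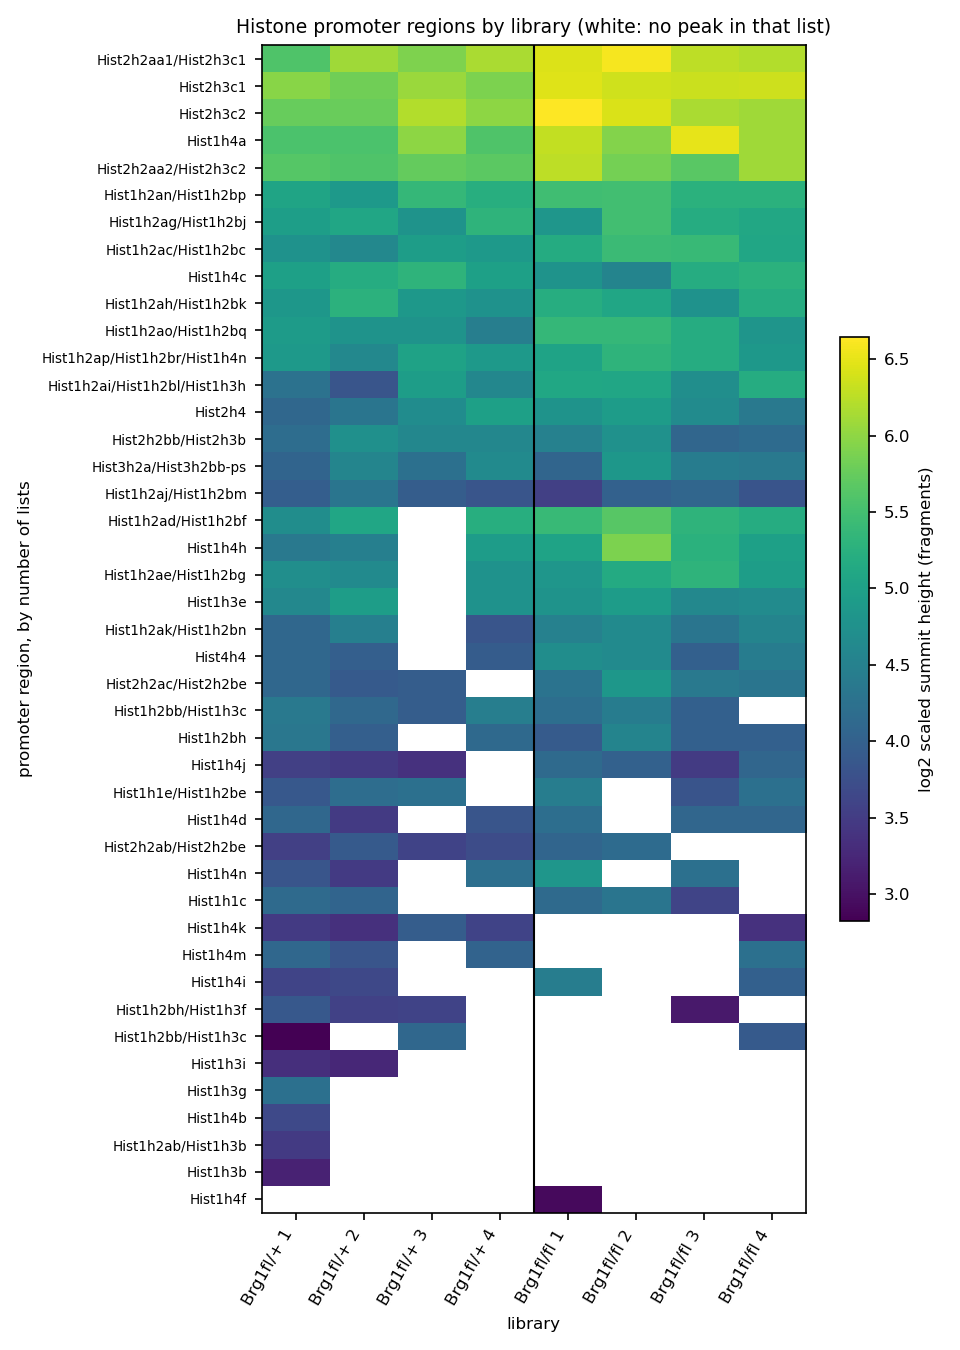
Scaled summit height (log2 of fragments, colour) of the 43 histone promoter regions (rows, by number of lists and mean height) in the 8 libraries (columns, Brg1fl/+ left of the line, Brg1fl/fl right); white cells had no peak. The 17 upper rows are filled throughout, 7 of the next 10 are white in Brg1fl/+ library 3 alone, and the Hist2h3c and Hist1h4a rows are the brightest.

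Many H2A and H2B genes stood in divergent pairs. There were 14 pairs of H2A and H2B genes whose starts lay 173 to 306 bp apart on opposite strands (median 247 bp), of which 13 had a region and 9 had it in all 8 lists. The closest pair was Hist3h2a/Hist3h2bb-ps at 173 bp, detected in all 8 lists, and the farthest was Hist1h2aa/Hist1h2ba at 306 bp, the only pair with no region. In 12 of the 13 the summit lay between the starts. A further divergent pair joined an H2B and an H3 gene, Hist1h2bh and Hist1h3f, 660 bp apart and detected in 4 lists. A separate region at chr13:23544267-23544877, in 7 lists, counted for Hist1h2bh with its summit at −1041 bp from that start, inside the Hist1h3f gene.

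Summits sat at different places in the classes. Regions were classed by the promoter windows they touched. At the 14 regions that touched windows of both H2A and H2B genes the median summit lay at −92.5 bp from the nearest histone start, that is upstream. These include Hist2h2ab/Hist2h2be, which is not at a divergent pair and had its summit 88 bp downstream of the Hist2h2ab start. At the 13 H4 regions it lay 8 bp downstream, with a range from −135 to 253 bp and 7 of 13 downstream of the start. At the 6 regions that touched windows of H3 genes alone the median was 7.5 bp downstream, with 4 of 6 downstream. H4 genes are near copies of each other, and at the H4 regions whose summits lay over 100 bp downstream (Hist1h4j, Hist1h4k, Hist1h4h, Hist1h4b and Hist1h4f) 40.6% to 90.6% of the 32-bp words within 100 bp of the summit occurred elsewhere in the genome. The share was 0% at 22 of the 43 regions. How reads that map to several copies were placed is not given in the sources used here.

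**Figure D2:**
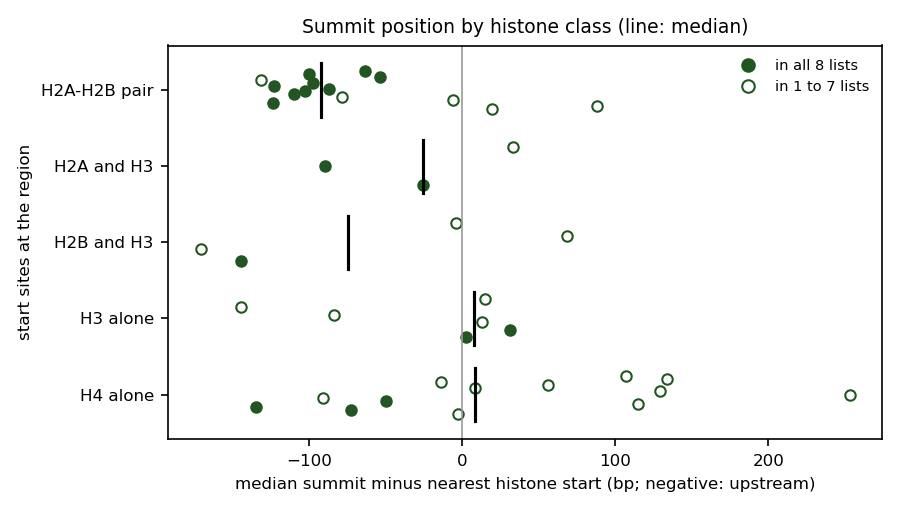
Position of the summit relative to the nearest histone start (bp, negative is upstream), with regions classed by the promoter windows they touched. The classes are H2A with H2B, H2A or H2B with H3, H3 alone and H4 alone. Filled points are regions in all 8 lists, open points those in 1 to 7, and lines the medians. Most H2A with H2B regions gather about −92.5 bp, and the H4 points spread to both sides of the start.

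Detection of the histone promoters did not separate the genotypes. In Brg1fl/+ libraries 1 to 4, 97.7%, 86.0%, 58.1% and 69.8% of the 43 regions had a peak, and in Brg1fl/fl libraries 1 to 4, 79.1%, 67.4%, 74.4% and 74.4%. The 4 Brg1fl/fl values lie inside the Brg1fl/+ range, with means of 77.9% ± 17.5 (SD, n = 4) in Brg1fl/+ and 73.8% ± 4.79 (SD, n = 4) in Brg1fl/fl. When each list was limited to its 6271 best peaks, the length of the shortest, the difference in means turned from −4.07 to 18.6 percentage points.

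Beside other promoters, the histone regions had the higher share in every library. The share of other promoters was 73.9% ± 20.2 (SD, n = 4) in Brg1fl/+ and 64.2% ± 9.23 in Brg1fl/fl. The histone share stood above it by 0.689, 2.22, 5.52 and 7.68 percentage points in Brg1fl/+ libraries 1 to 4 and by 8.98, 17.01, 6.93 and 5.70 in Brg1fl/fl. These values overlap, with Brg1fl/+ libraries 1 and 2 the lowest and Brg1fl/fl library 2 the highest. Per region, 12 histone regions were detected in fewer Brg1fl/fl than Brg1fl/+ libraries (27.9%), 20 in as many and 11 in more (25.6%), and of all promoter regions 37.4% were in fewer and 11.35% in more.

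No histone region was detected in all 4 libraries of a genotype and in none of the other, a pattern met by 0.165% of all promoter regions for Brg1fl/+ and 0.00968% for Brg1fl/fl. The largest difference was at Hist1h4k, with a peak in 4 Brg1fl/+ libraries and 1 Brg1fl/fl library, at scaled heights of 11.1, 10.3, 15.4, 12.1 and 10.3 fragments, the last in Brg1fl/fl library 4. Without that library it was detected in every Brg1fl/+ and in no Brg1fl/fl library. Hist1h3i was detected in 2 Brg1fl/+ libraries and in none of Brg1fl/fl.

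A few further regions had 2 more Brg1fl/+ than Brg1fl/fl libraries. Hist1h4m had a peak in 3 and 1 libraries, Hist1h2bh/Hist1h3f in 3 and 1, and Hist2h2ab/Hist2h2be in 4 and 2. Hist2h2ac/Hist2h2be was detected in 3 Brg1fl/+ libraries and all 4 of Brg1fl/fl. The 5 regions seen in a single list, 4 in Brg1fl/+ library 1 and Hist1h4f in Brg1fl/fl library 1, came from the longest list of each genotype.

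Within their lists, the peaks of the 17 regions found everywhere ranked behind those of other promoters by the median. Their median rank by q, in percent of the list counted from the best peak, was 28.8%, 37.1%, 54.4% and 42.1% in Brg1fl/+ libraries 1 to 4 and 31.9%, 46.1%, 36.4% and 33.7% in Brg1fl/fl. The ranges overlap, with means of 40.6% ± 10.7 and 37.0% ± 6.31 (SD, n = 4 each), behind the medians of the other promoters at 26.4% ± 9.62 and 29.0% ± 5.42. The difference of −3.56 percentage points turned to 0.98 without Brg1fl/+ library 3 and became −11.7 with 6271 peaks per list.

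Summit heights were compared on the number of fragments at the summit, scaled so that the median over all regions found in all 8 lists was the same in every library. Of the 43 histone regions 17 qualified. Their median scaled height was 30.4, 29.2, 30.9 and 31.8 fragments in Brg1fl/+ libraries 1 to 4 and 36.1, 41.3, 36.7 and 36.7 in Brg1fl/fl. Every Brg1fl/fl library was above every Brg1fl/+ library, while the median of the other promoters was 40.2 ± 0.720 and 40.1 ± 0.456 fragments (SD, n = 4 each). Of the 4581 regions that set the scale 4238 were promoter regions, so the scaling itself holds that median nearly equal. It is not an independent comparison.

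In the limma fit over all 4581 regions found in all 8 lists, 5 of the 17 histone regions were higher in Brg1fl/fl at an adjusted p under 0.05 and none was lower. A region missing from any list was not in this fit and could not be called in either direction. This left out every region detected in fewer, or in more, Brg1fl/fl than Brg1fl/+ libraries, Hist1h4k among them. Over all regions 9.34% were called higher and 3.54% lower, so that the histone count of 5 is 29.4% against that background. The median log2 difference was 0.25 over the histone regions, 0.05 over all promoter regions and 0.06 over all regions, and 14 of the 17 differences were positive. At an unadjusted p under 0.05, 8 histone regions were higher and 0 lower. The share of all regions at that unadjusted threshold was not counted, so unadjusted counts here and below have no background beside them. No overlap between the genotypes, with Brg1fl/fl above, was seen at 3 histone regions against 11.3% of all regions, and with Brg1fl/fl below at none against 4.72%.

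These calls depended on the scale and on few libraries. Scaled by each library's own background, which was recovered from the peaks, 14 of the 17 were called lower and none higher, and so were 4162 of all 4581 regions, whose median moved from 0.06 to −0.81. The histone median was −0.62 on that scale. This scaling moves every region by the same amount, so the 0.19 between the histone median and that of all regions is the same on both scales by construction. The called histone regions numbered 2 when Brg1fl/+ library 1, Brg1fl/fl library 1 or Brg1fl/fl library 2 was left out and 3 without Brg1fl/+ library 2. The count of 2 is 11.8% of 17, against 7.70%, 6.29% and 7.04% of all regions called higher, in that order. The count of 3 is 17.6%, against 6.36%.

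**Figure D3:**
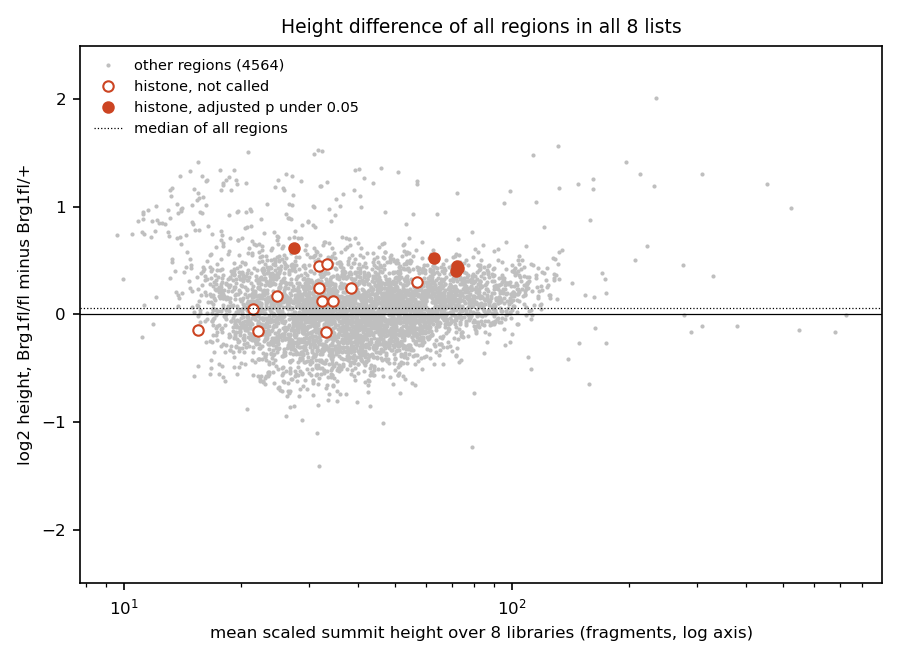
Difference in summit height (log2, Brg1fl/fl minus Brg1fl/+) against mean scaled height over 8 libraries (fragments, log axis) for the 4581 regions found in all 8 lists; red circles are the 17 histone regions, filled where called, and the dotted line is the median of all regions, 0.06. The histone points lie between −0.17 and 0.62, within the cloud of other regions and mostly above its median.

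The linker histone genes had no region in all 8 lists, so their heights were not in that fit. Hist1h1e shared its region with Hist1h2be, with the summit 33 bp downstream of the Hist1h1e start. In the fit that allowed 1 missing library per genotype, its log2 difference was 0.07 ± 0.25 (SE, limma adjusted p = 0.892). Hist1h1c, in 2 Brg1fl/+ and 3 Brg1fl/fl libraries, had scaled heights of 17.7, 16.6, 17.6, 19.7 and 12.2 fragments, in that order.

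Of the 9 H2A and H2B pair regions found everywhere, 1 was called. This was Hist1h2ai/Hist1h2bl/Hist1h3h at chr13:21715930-21716718, whose summit lay at −100 bp from the start of Hist1h2ai and which reached the window of Hist1h3h only with its end. Its scaled heights were 19.2, 14.2, 30.9 and 24.1 fragments in Brg1fl/+ and 34.4, 34.1, 26.3 and 36.7 in Brg1fl/fl. The groups overlapped, with Brg1fl/+ library 3 above Brg1fl/fl library 3, and the log2 difference was 0.62 ± 0.20 (SE, limma adjusted p = 0.0387). With the library pairs that may share a mouse averaged, it was no longer called (limma adjusted p = 0.0566).

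The pair Hist1h2ac/Hist1h2bc, at chr13:23683662-23684529 with its summit inside the printed stretch, had heights of 27.3, 24.5, 30.9 and 29.6 fragments in Brg1fl/+ and 36.1, 43.1, 42.3 and 33.8 in Brg1fl/fl. The genotypes did not overlap, yet the log2 difference of 0.47 ± 0.16 missed the threshold (SE, limma adjusted p = 0.0525). At Hist1h2ao/Hist1h2bq the heights were 30.4, 27.6, 27.5 and 21.9 fragments in Brg1fl/+ and 41.1, 41.3, 36.7 and 28.2 in Brg1fl/fl. Brg1fl/fl library 4 fell below the highest Brg1fl/+ library there, and the log2 difference was 0.45 ± 0.17 (limma adjusted p = 0.0831). All words of that region occur elsewhere in the genome.

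The tallest of the pair regions was Hist1h2an/Hist1h2bp, with heights of 33.4, 29.2, 41.2 and 37.3 fragments in Brg1fl/+ and 44.5, 44.9, 38.5 and 38.5 in Brg1fl/fl. The groups overlapped and the log2 difference was 0.25 ± 0.15. At Hist1h2ah/Hist1h2bk the values of 28.8, 38.7, 29.2 and 27.4 fragments in Brg1fl/+ and 37.0, 34.1, 27.3 and 36.7 in Brg1fl/fl overlapped, with a log2 difference of 0.12 ± 0.17. The lowest was Hist1h2aj/Hist1h2bm, a pair in which the H2A copy is a pseudogene, at 15.7, 19.7, 15.4 and 14.3 fragments in Brg1fl/+ and 11.8, 16.1, 16.9 and 14.1 in Brg1fl/fl. It overlapped as well and had a log2 difference of −0.15 ± 0.23.

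At Hist3h2a/Hist3h2bb-ps, the closest pair, heights of 16.7, 23.7, 18.9 and 25.2 fragments in Brg1fl/+ overlapped those of 16.8, 28.7, 21.6 and 20.7 in Brg1fl/fl. The log2 difference was 0.05 ± 0.21. Its Brg1fl/fl mean was 21.9 ± 4.96 fragments and its Brg1fl/+ mean 21.1 ± 3.997 (SD, n = 4 each).

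Regions of the Hist2 cluster carried 3 of the 5 calls, at Hist2h3c1, Hist2h3c2 and Hist2h2aa1/Hist2h3c1. Hist2h3c1 and Hist2h3c2 encode the same H3 variant, and their segment, with Hist2h2aa1 and Hist2h2aa2, exists in a pair of near copies, in which 77.8% to 95.7% of the 32-bp words of each region occur elsewhere in the genome, so that the copies are uncertain as separate measurements. At Hist2h3c1 (chr3:96246299-96247072) the heights were 62.2, 56.0, 66.9 and 59.2 fragments in Brg1fl/+ and 88.2, 82.5, 80.8 and 81.8 in Brg1fl/fl. Every Brg1fl/fl library was higher, and the log2 difference was 0.45 ± 0.12 (SE, limma adjusted p = 0.00805).

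At Hist2h2aa1/Hist2h3c1 (chr3:96245181-96245838) they were 48.1, 68.7, 60.1 and 71.3 fragments in Brg1fl/+ and 86.5, 96.9, 77.1 and 73.3 in Brg1fl/fl. The groups did not overlap here either, and the log2 difference was 0.44 ± 0.13 (limma adjusted p = 0.0210). Of the regions found in all 8 lists that touched the window of an H2A or an H3 gene, it had the highest mean. Its summit lay at −26 bp from the start of Hist2h2aa1, and only its end reached the window of Hist2h3c1.

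Hist2h3c2 (chr3:96238815-96239463) had heights of 54.1, 54.5, 73.8 and 63.6 fragments in Brg1fl/+ and 99.9, 86.1, 71.4 and 68.6 in Brg1fl/fl. Brg1fl/+ library 3 exceeded Brg1fl/fl libraries 3 and 4, and the log2 difference was 0.40 ± 0.13 (limma adjusted p = 0.0365). It too was not called with averaged pairs (limma adjusted p = 0.0676). The fourth region of the segment, Hist2h2aa2/Hist2h3c2, had a log2 difference of 0.31 ± 0.13 and was not called (limma adjusted p = 0.126). With every region left out that had over 75% of its words elsewhere, 2 of 11 histone regions were called (18.2%, against 9.34% of all regions called higher). The median log2 difference of the 11 was 0.12.

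Among the regions in all lists that touched the window of an H3 gene, Hist2h2bb/Hist2h3b was the lowest. It had 18.2, 26.8, 24.0 and 24.1 fragments in Brg1fl/+ and 22.7, 26.9, 16.9 and 17.9 in Brg1fl/fl. Its median summit lay at −145 bp from the start of Hist2h2bb, the nearest histone start. These are therefore not heights at the Hist2h3b start. The groups overlapped, with a log2 difference of −0.16 ± 0.21.

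Of the 3 H4 regions found everywhere 1 was called. Hist1h4a (chr13:23760942-23761696), the tallest H4 promoter, had heights of 47.1, 47.4, 63.5 and 48.2 fragments in Brg1fl/+ and 78.1, 61.0, 90.2 and 68.6 in Brg1fl/fl. Only Brg1fl/+ library 3 and Brg1fl/fl library 2 crossed, and the log2 difference was 0.53 ± 0.13 (SE, limma adjusted p = 0.00728). None of the words within 100 bp of its summit, at −135 bp from the start, occur elsewhere in the genome.

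Hist1h4c had the most negative difference of the 17, with heights of 31.9, 36.3, 39.5 and 31.8 fragments in Brg1fl/+ and 27.7, 23.3, 36.7 and 38.5 in Brg1fl/fl. These overlap, and the log2 difference of −0.17 ± 0.17 was not called (limma adjusted p = 0.579). Hist2h4, the lowest H4 region in all lists, had 17.2, 19.7, 25.7 and 31.8 fragments in Brg1fl/+ and 27.7, 30.5, 25.4 and 20.7 in Brg1fl/fl, with a log2 difference of 0.17 ± 0.20.

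**Figure D4:**
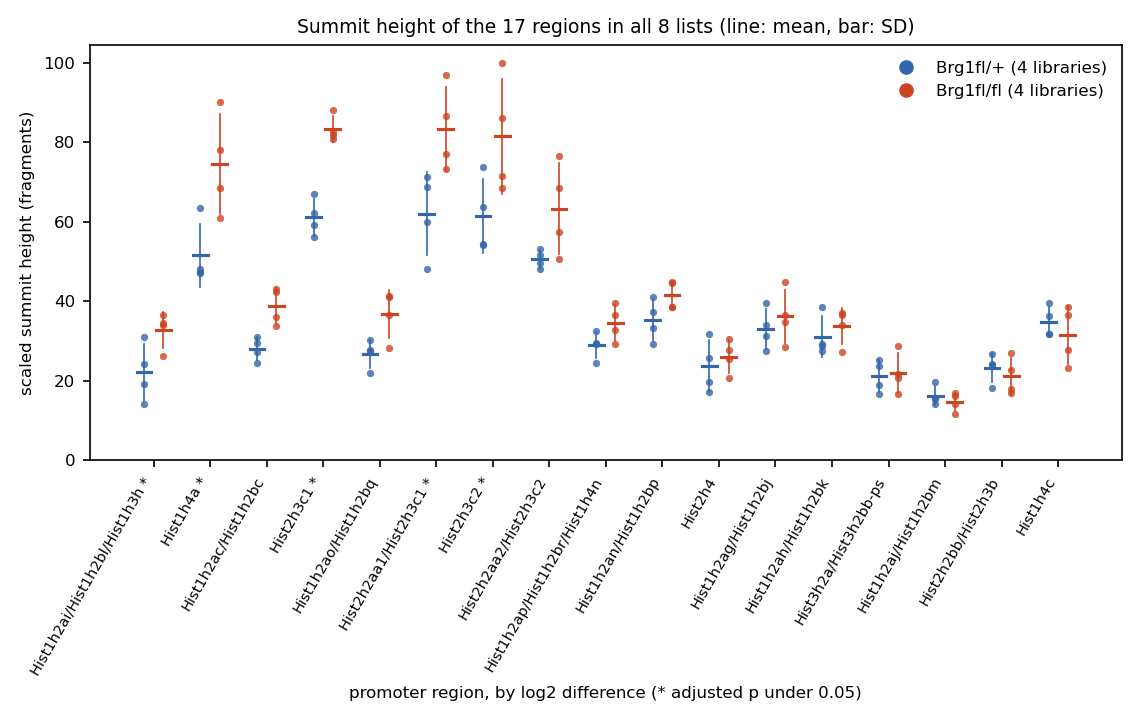
Scaled summit height (fragments) of the 17 histone promoter regions found in all 8 lists, ordered by log2 difference; points are libraries (4 Brg1fl/+ in blue, 4 Brg1fl/fl in red), lines means, bars SD, and stars mark an adjusted p under 0.05. The 4 tallest of the called regions reach 61.0 to 99.9 fragments in Brg1fl/fl. The genotypes overlap at all regions but 3, Hist1h2ac/Hist1h2bc, Hist2h2aa1/Hist2h3c1 and Hist2h3c1.

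The ratio of local to library background was lower on average in Brg1fl/fl, both at the histone regions and at other promoters. The library background itself differed between libraries, so the ratio does not show that the local background in fragments was lower. MACS2 sets each summit against the expected signal around it, and at the 17 regions this expectation was 3.73, 3.11, 2.37 and 2.78 times the library background in Brg1fl/+ and 2.27, 2.40, 2.30 and 2.17 times in Brg1fl/fl. The genotypes overlapped there, with Brg1fl/+ library 3 below Brg1fl/fl library 2. At other promoters the medians were 3.02 ± 0.594 and 1.96 ± 0.0964 (SD, n = 4 each). At Hist1h4a the ratio was 6.68, 6.47, 5.22 and 5.40 in Brg1fl/+ and 3.92, 4.27, 4.69 and 3.98 in Brg1fl/fl, without overlap. On the deposited fold over the local background no histone region was called by limma. At an unadjusted p under 0.05, 3 were higher and 1 lower, and the histone median was 0.10. The part of the local background in the height differences was not tested.

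Allowing a region to be missing from 1 library of each genotype brought 29 of the 43 histone regions into the fit, with missing values left out. Of these 7 were called higher and none lower, against 8.32% and 4.24% of 6517 regions, and the median log2 difference was 0.32 against 0.04. Regions detected in fewer than 3 libraries of a genotype, such as Hist1h4k, stayed outside this fit as well and could not be called. The additional calls were Hist1h2ac/Hist1h2bc (limma adjusted p = 0.0469) and Hist1h4h. Hist1h4h, which was chosen for naming after its values were seen, had no peak in Brg1fl/+ library 3 and heights of 20.7, 22.1 and 30.7 fragments in the other Brg1fl/+ libraries and 32.8, 59.2, 38.5 and 31.95 in Brg1fl/fl, without overlap. Its log2 difference was 0.70 ± 0.20 (limma adjusted p = 0.0141), and 40.6% of the words within 100 bp of its summit occur elsewhere.

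**Figure D5:**
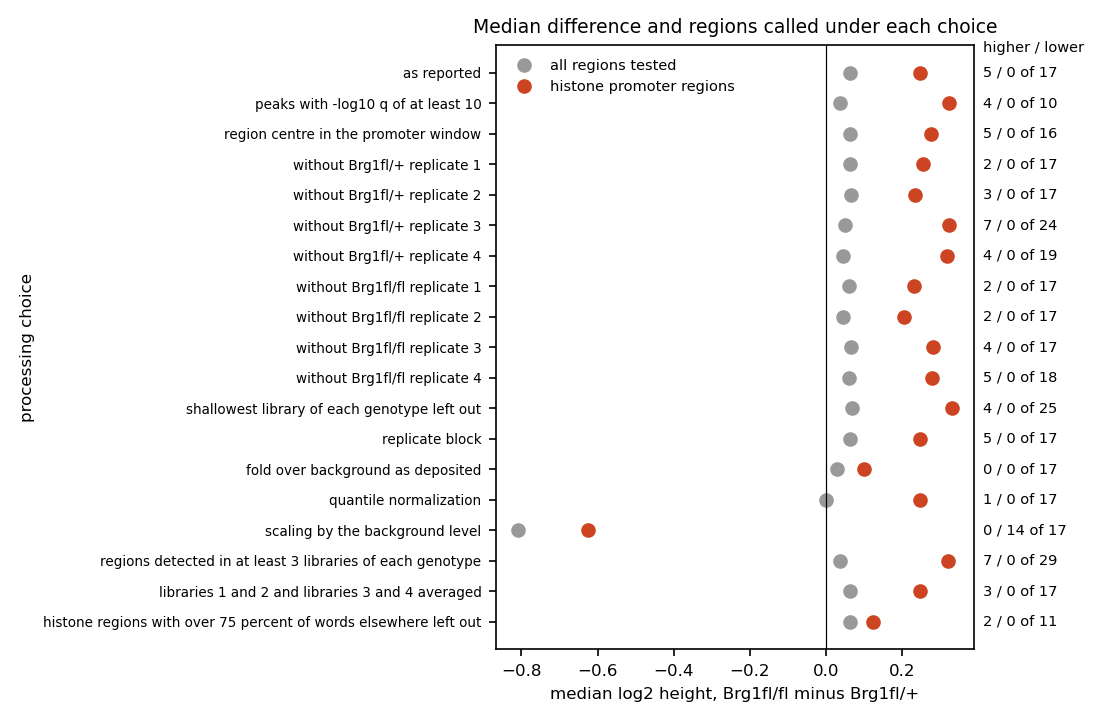
Median log2 height difference (Brg1fl/fl minus Brg1fl/+) of the histone promoter regions (red) and of all regions tested (grey) under each processing choice, with the number of histone regions called higher and lower at the right. Histone medians lie between 0.10 and 0.33, above the grey ones, except when scaled by background, where both are negative at −0.62 and −0.81.

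The genes that transcribe and process histone mRNA were accessible in both genotypes. Of 15 such genes all had a promoter peak in at least 1 list, 12 of them in all 8, and 1 of these 12 was called higher and 1 lower, against 9.34% and 3.54% of all regions, so that the counts say nothing particular of these genes. Cpsf2, a subunit of the complex that cleaves histone pre-mRNA, had heights of 16.7, 15.8, 15.4 and 25.2 fragments in Brg1fl/+ and 30.2, 28.7, 28.2 and 34.8 in Brg1fl/fl. All Brg1fl/fl libraries were higher (log2 difference 0.76 ± 0.20, limma adjusted p = 0.00906).

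Lsm10, a component of the U7 snRNP that recognises the histone 3′ end, had heights of 33.9, 31.6, 27.5 and 40.6 fragments in Brg1fl/+ and 20.2, 21.5, 21.6 and 17.9 in Brg1fl/fl. All Brg1fl/fl libraries were lower (log2 difference −0.71 ± 0.18, limma adjusted p = 0.00912). Neither Npat, the cyclin E-CDK2 substrate of the histone locus body (0.01 ± 0.13), nor Slbp, the stem-loop binding protein (0.23 ± 0.12), nor Casp8ap2, which encodes FLASH (0.16 ± 0.12), was called, and the median over the 12 was 0.02. Hinfp, the H4 promoter factor, had a log2 difference of 0.04 ± 0.12 and Pou2f1, which binds the octamer, 0.03 ± 0.12. Lsm11 and Eri1 had a peak in 3 Brg1fl/+ and 4 Brg1fl/fl libraries, and Srrt in 1 and 2.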

How the data were processed

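ATAC-seq was analysed in 8 libraries, 4 Brg1fl/+ and 4 Brg1fl/fl, grouped by the sample labels. The 8 RNA-seq libraries of the series were not analysed here. Per the labels and the methods, Bowtie2 alignment to mm10 was followed by MACS2 peak calling for every library on its own, done by the authors. Versions, options and the handling of duplicate and multiply mapped reads and of any transposase shift are not given in the sources used here. For each peak the deposited lists hold a ratio (summit over expected local signal, as a fold), a −log10 p, a −log10 q and an integer score that MACS2 made from the latter, which was not used.

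From fold and −log10 p the number of fragments at each summit was recovered, to within 0.002 of the deposited −log10 p. Between 99.7% and 99.9% of the peaks of a list gave a whole number, and 1000 of 1000 simulated summits were recovered. These heights were scaled to an equal median over regions found in all lists and compared on the log2 scale with limma 3.58.1 (R 4.3.3), with Benjamini-Hochberg adjustment over all regions and a threshold of 0.05. No p-value is given for a value taken over the histone regions. With pairs of libraries as 2 against 2, an exact permutation test could not go below p = 0.333. On data simulated for this comparison over 4581 regions, 36 of 100 planted log2 changes of 0.5 and 90 of 100 of 1 were called, and 6 of 4381 unchanged regions.

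Regions were assigned by an overlap of at least 1 bp with a promoter window. Named were, by rule, up to 6 regions with the largest difference in number of libraries, the highest and lowest region per class, the 5 largest and 5 smallest height differences, every called region, the closest and farthest divergent pair, and genes of the lists of histone regulators, chaperones, replication-independent histones and cell type markers. One marker gene of these lists is not reported here. The members, lists and rules were chosen with earlier results of these data known. The alternatives tried were peaks with −log10 q of at least 10, equal numbers of peaks, assignment by region centre, starts of coding transcripts only, other scalings, the deposited fold, regions in at least 3 libraries of each genotype, each library left out, averaged pairs and a replicate block. Leaving out the shallowest library of each genotype and leaving out repeated regions were added after the data were seen. Python 3.11.15 was used for the rest.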

Additional observations from a re-analysis of the deposited data

Results flagged for a closer look

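Among 46 sets of 4 libraries examined (6 values over the histone regions and the heights of the 17 regions, in each genotype), 3 held a library far from the other 3, and chance flags about 1 in 20 such sets. The median scaled height of the 17 histone regions was 41.3 fragments in Brg1fl/fl library 2, against 36.1 to 36.7 in the other Brg1fl/fl libraries. At Hist1h2ah/Hist1h2bk, Brg1fl/+ library 2 had a scaled height of 38.7 fragments against 27.4 to 29.2 in the others. At Hist1h4a, Brg1fl/+ library 3 had 63.5 fragments against 47.1 to 48.2, so that the highest Brg1fl/+ value there came from the library with the lowest background.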

How the results depend on the processing

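Of the settings tried, the sign of the median height difference of the histone regions turned when heights were scaled by background (−0.62, with the median of all regions at −0.81). It was 0.10 on the deposited fold, 0.12 without repeated regions, 0.32 with a minimum −log10 q of 10, 0.33 without the shallowest libraries and 0.21 to 0.32 when a library was left out. The called histone regions, 5 higher and 0 lower (428 and 162 over all regions), became 0 on the deposited fold (157 and 100 over all regions). They were 1 after quantile normalization (226 and 197) and 0 higher and 14 lower when scaled by background (21 and 4162). With averaged pairs 3 were called higher (283 and 94), and without repeated histone regions 2 (428 and 162). When a library was left out, 2 to 7 were higher and 0 to 0 lower, against 6.29% to 9.08% of all regions higher. The difference in percent detected, −4.07, was 18.6 with equal numbers of peaks and −10.7 to 3.33 when a library was left out, and that in median rank, −3.56, was −11.7 and −7.48 to 0.98. Regions found in all libraries of a genotype and none of the other numbered 0 to 1 when a library was left out. Genes at a region detected in all lists, 29 in the main setting, were 15 with −log10 q of at least 10. They were 19 with equal numbers of peaks and 25 with assignment by region centre. The cause of these changes was not tested, except that a higher minimum, a shorter list or fewer regions leaves fewer to detect or call.

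Single regions turned sign on the deposited fold (Hist3h2a/Hist3h2bb-ps −0.12 and Hist1h2ah/Hist1h2bk −0.082), after quantile normalization (Hist3h2a/Hist3h2bb-ps −0.0043) and when scaled by background, which moves the log2 difference of every region down by the same amount and so tells nothing of a single region. There Hist3h2a/Hist3h2bb-ps was −0.82, Hist1h2ai/Hist1h2bl/Hist1h3h −0.25, Hist1h2ao/Hist1h2bq −0.42, Hist1h2ah/Hist1h2bk −0.75, Hist1h2ac/Hist1h2bc −0.41, Hist1h4a −0.34, Hist2h3c2 −0.47, Hist2h2aa1/Hist2h3c1 −0.44 and Hist2h3c1 −0.42.

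The replicate numbers did not pair the samples: correlations of same-numbered deviations ran from −0.061 to −0.0073. With the number as a replicate block 5 histone regions were called higher and 0 lower, with a median of 0.25, and none of the 12 histone regions followed across settings changed its call. Over these regions and settings, 45 values kept direction and call, 11 were no longer called, 4 became called and 12 turned sign. Brg1fl/+ library 3, with the lowest background, lacked 18 of the 43 regions. The part of depth in detection was not tested.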

Other observations

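Genes of related function were described by lists. Of 11 replication-independent histone genes 8 had a promoter peak in at least 1 list and 5 were in the height fit, none of them called by limma (2 at an unadjusted p under 0.05). H2afv, which encodes an H2A.Z protein, had scaled heights of 66.8, 74.99, 77.2 and 80.04 fragments in Brg1fl/+ and 90.7, 95.1, 81.8 and 94.9 in Brg1fl/fl. The genotypes did not overlap, and the log2 difference was 0.28 ± 0.11 (limma adjusted p = 0.102). The median over the 5 genes was 0.23, against 0.25 for the clustered histone regions and 0.06 for all regions.

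Of 10 histone chaperone genes 9 had a promoter peak, Chaf1a being the exception, and of the 7 in the height fit none was called by limma (0 at an unadjusted p under 0.05, median log2 difference 0.04). Asf1b, the chaperone of dividing cells that carries H3 and H4, had a log2 difference of 0.19 ± 0.12 and Hira, which deposits H3.3, −0.22 ± 0.15. Of the B cell markers 3 were in the fit. Ms4a1 (−0.06 ± 0.24, limma adjusted p = 0.893) and Pax5 (0.08 ± 0.14, limma adjusted p = 0.757) were not called. Cd74, the invariant chain, was called lower in Brg1fl/fl, as were 3.54% of all regions (−0.45 ± 0.15, limma adjusted p = 0.0488), with 38.5, 55.3, 44.6 and 42.8 fragments in Brg1fl/+ and 29.4, 30.5, 37.6 and 34.8 in Brg1fl/fl.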
